A study of Mus musculus with 6 samples.

Results

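The genes described here are the 2 insulin-like growth factor ligands, Igf1 and Igf2, and 6 IGF binding proteins, Igfbp2 to Igfbp7. They were taken by symbol, and all 8 were among the 16411 genes listed for the cells. The cells came from hypothalami of ob/ob males, which lack leptin and become obese and diabetic. Every labelled sample was 1 individually housed mouse, 11 weeks old, given an intracerebroventricular dose of 3 µg of a fibroblast growth factor variant named FGF1 R50E and killed at Day 5. All mice thus shared genotype, sex, age and treatment, no vehicle or untreated group stands beside them, and what the injection changed could not be examined. The labels name 6 mice, and cells of 4 of them (mice 3, 4, 30 and 34) were in the table, while mice 12 and 37 were not analysed here. Each mouse is 1 replicate, and the comparisons below are between cell types of the same mice.

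IGF1 and IGF2 are secreted relatives of insulin that act through the IGF1 receptor, a receptor tyrosine kinase, while the IGF2 receptor mainly removes IGF2 from the cell surface. Binding proteins hold the ligands outside the cell, prolong their life and limit how much reaches the receptor, and proteases such as HTRA1 and PAPP-A cut them and free the ligand. In the brain, Igf2, an imprinted gene, is best known from the meninges, the choroid plexus and blood vessels, whereas binding proteins are made by several glial and vascular cell types.

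UMIs (unique molecular identifiers, counted molecules) of each gene were summed over the cells of each mouse and each of the 9 cell types assigned by the authors, and a level is given in CPM, the gene's UMIs per 1000000 UMIs of that sum. The 4 mice gave 20151 cells, between 3005 and 7386 per mouse, with medians of 909 to 1066 UMIs per cell, and 194 cell barcodes occurred in more than 1 of the 4 libraries. The marker list of each type was highest in the type of that name. The cells labelled endothelial also carried the mural list (pericyte and smooth muscle genes such as Vtn and Rgs5) at 3508 to 3878 CPM beside 7365 to 7915 CPM for the endothelial list, so this label covers mural cells as well. Mouse 30 stood apart: it held 44 of the 68 vascular leptomeningeal cells (VLMC, fibroblast-like cells of the meninges and vessel walls), 273 of the 277 cells of the authors' cluster 32, most of them labelled ependymal, and 244 of the 303 tanycytes of cluster 26. Red blood cell genes were also highest in this mouse in 7 of the 9 types, such as 516 CPM in astrocytes and 395 CPM in tanycytes against 106 to 159 and 76.0 to 112 CPM in the others, but in microglia and committed oligodendrocyte precursors they were highest in mouse 3 (2421 and 445.5 CPM). Values without this mouse are given beside the main results that rest on it.

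The genes lie at 7 places in the genome (GENCODE M21, GRCm38), because Igfbp2 (chr1:72824503-72852474, plus strand) and Igfbp5 (chr1:72857932-72874884, minus strand) face each other with their ends 5457 bases apart. Their levels by cell type differed, and the 100 bases before the start of each are therefore shown first (RefSeq, GRCm38.p6), followed by those of Igfbp3, Igfbp4 and Igfbp7, which also differed from each other in their levels by cell type. The windows are chr1:72824380-72824479 on the plus strand for the first of 2 annotated starts of Igfbp2, chr1:72874866-72874965 on the minus strand for Igfbp5, chr11:7213924-7214023 on the minus strand for Igfbp3, chr11:99041144-99041243 on the plus strand for Igfbp4 and chr5:77408046-77408145 on the minus strand for Igfbp7. Capitals mark each TATAAA and each GGGCGG, searched on both strands.
Igfbp2: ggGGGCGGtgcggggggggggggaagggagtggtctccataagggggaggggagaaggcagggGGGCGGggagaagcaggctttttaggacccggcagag
Igfbp5: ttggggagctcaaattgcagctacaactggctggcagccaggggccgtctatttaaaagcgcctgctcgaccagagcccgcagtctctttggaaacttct
Igfbp3: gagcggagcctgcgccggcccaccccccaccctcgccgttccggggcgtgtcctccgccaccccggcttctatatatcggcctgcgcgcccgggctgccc
Igfbp4: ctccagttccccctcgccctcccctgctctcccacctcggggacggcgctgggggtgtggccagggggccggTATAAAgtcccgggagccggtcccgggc
Igfbp7: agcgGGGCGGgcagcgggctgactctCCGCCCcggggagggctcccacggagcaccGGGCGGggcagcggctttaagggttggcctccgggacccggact
TATAAA was found in the Igfbp4 window alone of these 5, starting 28 bases before the gene's start, and in 5.56% of the 32851 mouse windows of the same length. GGGCGG was found 3 times in the Igfbp7 window and 2 times in the Igfbp2 window, and in 24.7% of all windows. The windows of Igfbp5, Igfbp3 and Igfbp4 hold no GGGCGG, which says only that these letters are not in these 100 bases. The G and C content was 55% for Igfbp5 and between 71% and 77% for the other 4 windows.

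Each gene had its own distribution over the cell types. Of the 583 UMIs of Igfbp7, 87.3% lay in endothelial cells, which were 6.28% of all cells. Of the 220 UMIs of Igfbp4, 57.3% lay in tanycytes, elongated glia of the ventricular floor. Igfbp3 was divided between endothelial cells and oligodendrocyte precursor cells (OPC), with 48.2% and 41.9% of its 222 UMIs. Igfbp5 was the broadest, with 31.4% of its 3481 UMIs in tanycytes, 27.1% in astrocytes and 21.1% in ependymal cells.

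The 68 VLMC were 0.338% of all cells and held a large part of the UMIs of the remaining genes. They held 61.3% of the 106 UMIs of Igfbp6, 45.5% of the 255 of Igfbp2 and 36.2% of the 564 of Igf2, and 9 of the 33 UMIs of Igf1. Of their 65 Igfbp6 UMIs, 26 lay in 4 cells that lacked most VLMC markers, described below. The shares of Igfbp2 and Igf2 rest on mouse 30, and that of Igfbp6 does not. Without mouse 30 the VLMC share was 66.7% (exact 95% interval 52.5% to 78.9%, counting error only) for Igfbp6 and 22.8% (15.9% to 31.1%) for Igfbp2. For Igf2 it was 7.99% (5.01% to 12.0%), and endothelial cells then held 56.7%. The 36 Igfbp6 UMIs behind its share lay in only 5 VLMC of mouse 4 and 2 of mouse 34. Over all types, 3372 cells (16.7%) had a UMI of at least 1 of the 8 genes and 279 (1.38%) had UMIs of 2 or more. In VLMC these shares were 95.6% and 75%, in endothelial cells 44.2% and 9.87%, and in oligodendrocytes 6.05% and 0.110%.

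**Figure D1:**
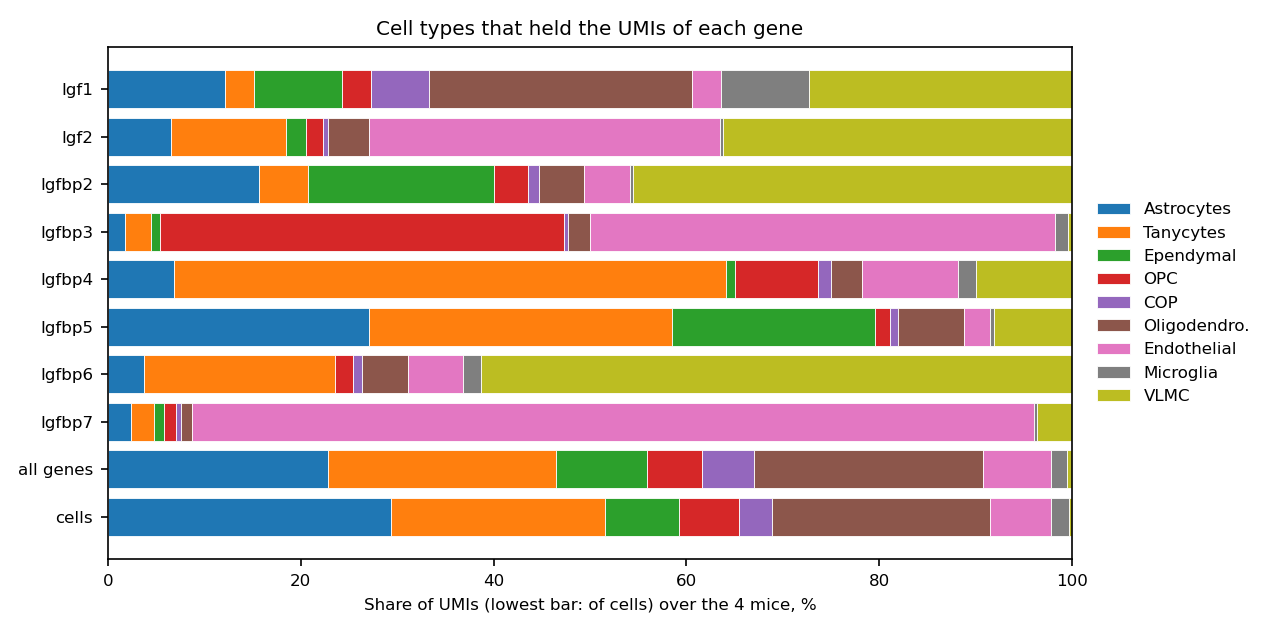
Share of the UMIs of each gene held by each cell type over the 4 mice (x axis, %), with the share of all UMIs and of all cells in the lowest bars. Endothelial cells held 87.3% of the Igfbp7 UMIs, tanycytes 57.3% of the Igfbp4 UMIs and VLMC, 0.338% of the cells, 61.3% of the Igfbp6 UMIs.

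Among the ligands, Igf2 (chr7:142650766-142666816, minus strand) was measured mainly in vascular cells. On the same strand it overlaps Gm49394 and Mir483, which were not in the table. In endothelial cells it was 108 CPM in mouse 3, 91.0 CPM in mouse 4, 213 CPM in mouse 30 and 106 CPM in mouse 34, or 129 ± 55.9 (SD, n = 4). Mouse 30 was high and the other 3 lay close together, and the mean without mouse 30 was 102 CPM. Tanycytes came next at 13.7 ± 12.1 CPM and astrocytes at 12.1 ± 14.8 CPM, and both means rested on mouse 30, with 31.6 and 34.0 CPM against at most 10.3 and 7.71 CPM in the other mice. Without mouse 30 these means were 7.77 and 4.83 CPM. The part of the red blood cell and VLMC transcripts of this mouse in its Igf2 values was not tested. Endothelial cells exceeded tanycytes by 3.39 ± 0.21 (log2 fold change ± SE, edgeR quasi-likelihood test, adjusted p = 7.73e-15), a pair of types in which 32.3% of 8474 genes were called. A gene is called where its adjusted p was below 0.05 and the types differed by more than 1 on the log2 scale. Neighbouring types in the order of a gene's level, such as these, were chosen on the same values, so their p-values describe that order only. Tanycytes and astrocytes did not differ beyond their spread (0.49 ± 0.33, edgeR adjusted p = 0.225).

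VLMC were too few for a test, since only mouse 30 had 20 cells, but their Igf2 level was high where they were best sampled. In mouse 30 it was 2174 CPM (exact 95% Poisson interval 1871 to 2513, counting error only), 10.2 times (7.55 to 14.1) that of the endothelial cells of the same mouse. The 6 VLMC of mouse 3 gave 2325 CPM from 13 UMIs, the 6 of mouse 34 gave 559 CPM from 7 UMIs, and the 12 of mouse 4 gave 45.3 CPM from 1 UMI. The value of mouse 4, with an interval of 1.15 to 252 CPM, could not be told apart from the endothelial level of that mouse. The VLMC marker list (Dcn, Lum, Col1a1, Col1a2 and Slc6a13) was also higher in the endothelial cells of mouse 30, at 216 CPM, than in those of the others, at 57.2 to 80.5 CPM. Endothelial cells without a UMI of that list held 140 CPM of Igf2 in mouse 30 and 81.6 to 92.3 CPM in the other mice. Those with such a UMI, 8 to 32 cells per mouse, held 350, 70.7, 594.5 and 351 CPM in mice 3, 4, 30 and 34. The part of VLMC transcripts in the endothelial Igf2 level of mouse 30 was not tested further.

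Within the endothelial label, Igf2 was higher in the cells with more mural UMIs. The 237 cells with more UMIs of the mural list than of the endothelial list held 227 CPM of Igf2 (Poisson interval 179 to 284), and the 983 cells with more endothelial UMIs 93.6 CPM (77.7 to 112). The first group was higher in each mouse, with 231 against 77.8 CPM in mouse 3, 215 against 52.5 in mouse 4, 408 against 161 in mouse 30 and 156 against 95.4 in mouse 34. This division of the cells is a range along 2 marker sums, with 46 cells at a tie. VLMC also carried the mural list, at 2589 CPM over all their cells against 3717 CPM under the endothelial label. The part of VLMC transcripts in the Igf2 difference between these groups was not tested. The 38 endothelial cells in the authors' cluster 39, rich in the smooth muscle actin gene Acta2 (2309 CPM), held 651 CPM of Igf2 (448 to 914).

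Igf1 (chr10:87858265-87937042, plus strand), the main effector of growth hormone in the liver and a product of neurons and myeloid cells in the brain, gave only 33 UMIs in the 20151 cells. Its mean was at most 6.32 CPM in the 8 types with 20 cells in every mouse, and it passed the filter on low counts in no comparison. VLMC held 9 of the UMIs, all in 6 cells of mouse 30 (107 CPM, Poisson interval 48.9 to 203), and without that mouse they held 0 of 19. Microglia held 3, all in mouse 34. At this depth Igf1 could not be ordered across the types.

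**Figure D2:**
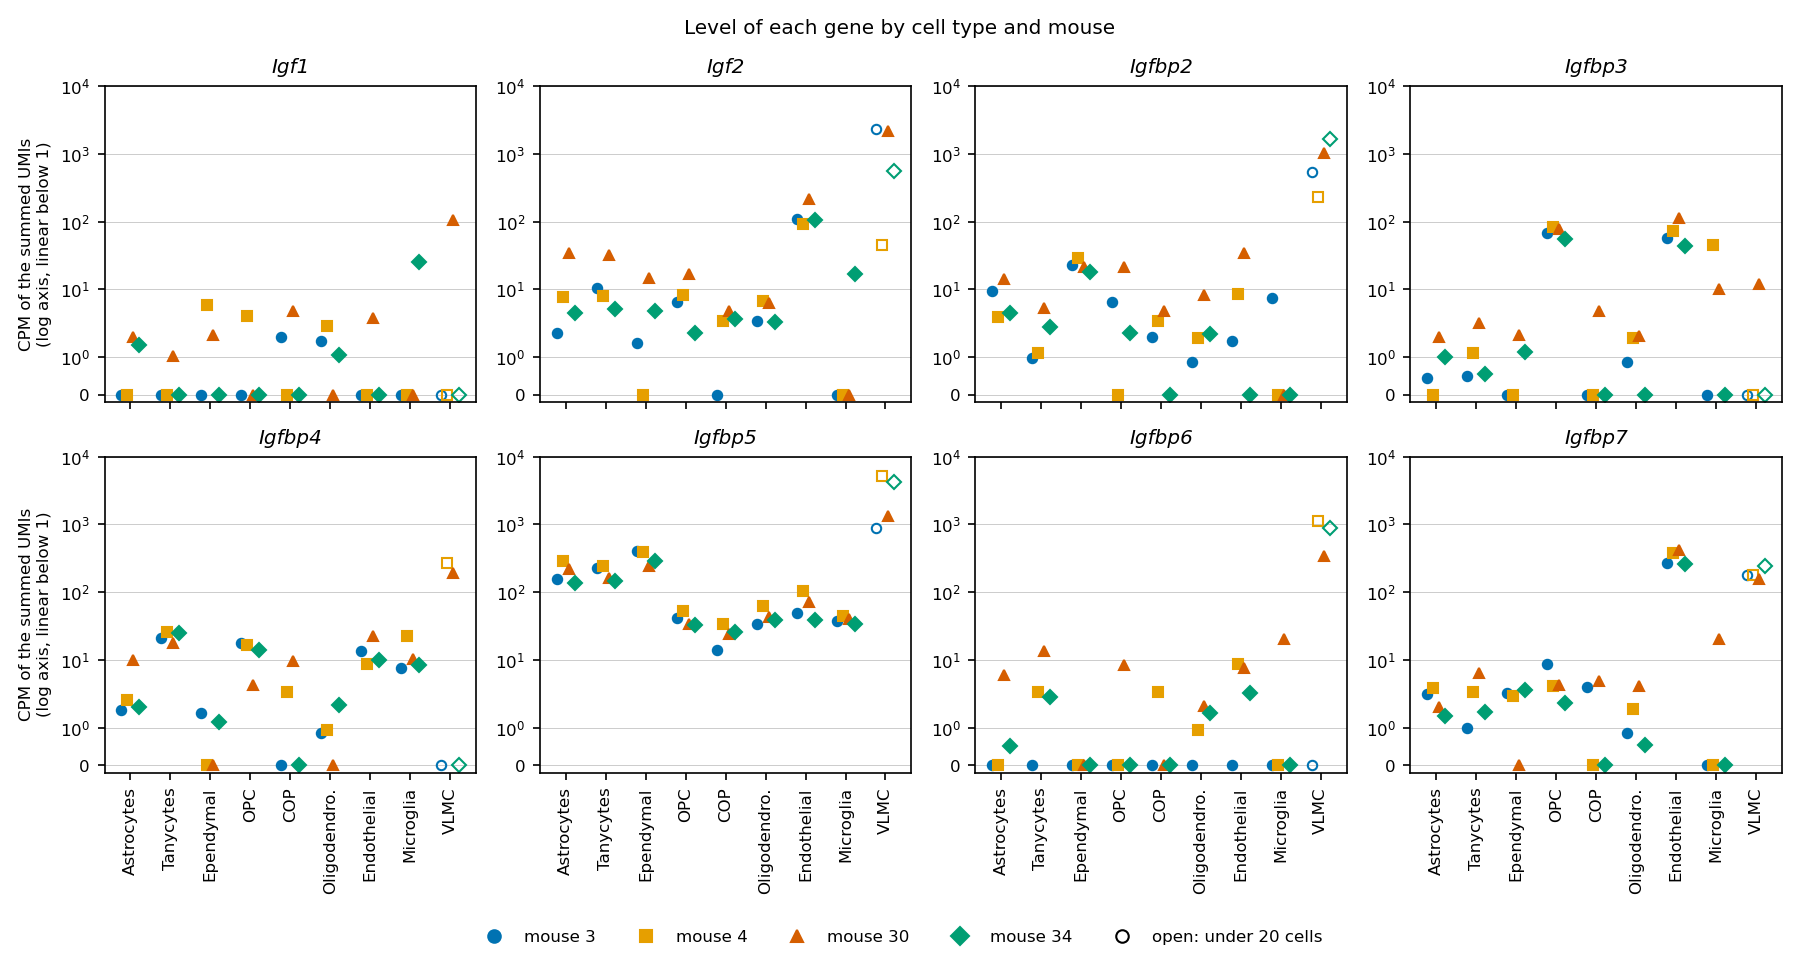
Level of each gene (y axis, CPM, logarithmic and linear below 1) in the 9 cell types, with 1 point per mouse and open points for sums of under 20 cells. Igfbp7 is high in endothelial cells of all 4 mice (258 to 414 CPM), Igfbp3 is high in endothelial cells and OPC, and Igfbp5 runs from 24.3 CPM in COP to 329 CPM in ependymal cells among the tested types.

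Igfbp7 (chr5:77349240-77408041, minus strand), a secreted protein that binds IGFs with low affinity and is a known component of vessel walls, separated endothelial cells from all other tested types. It was 265 CPM in mouse 3, 377 in mouse 4, 414 in mouse 30 and 258 in mouse 34 (329 ± 78.5, n = 4; 300 CPM without mouse 30). In the other 7 types its means were between 1.85 and 5.07 CPM, and no mouse exceeded 20.3 CPM, so the groups did not overlap. The next type, microglia, held 2 UMIs in all, and the ratio of the summed levels was 59.6 (exact counting interval 16.4 to 493). The edgeR difference between these types was 5.70 ± 0.50 on the log2 scale (adjusted p = 7.33e-10). Without mouse 30, which held both microglial UMIs, it was 9.31. After each cell was thinned to 500 UMIs, 13.9 ± 3.25% of endothelial cells had an Igfbp7 UMI (30.1% unthinned, median 1064 UMIs per cell), and 0.0735 ± 0.0624% of oligodendrocytes did (0.209% unthinned, median 1136). The gene overlaps Polr2b on the other strand. Like Igf2, Igfbp7 was higher in the endothelial cells with more mural UMIs, at 466 CPM (396 to 545) against 260 CPM (233 to 289), and this held in all 4 mice.

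Igfbp3 (chr11:7206086-7213923, minus strand), the main carrier of IGFs in blood plasma, was high in cells of separate lineages. In endothelial cells it was 56.5 CPM in mouse 3, 73.7 in mouse 4, 114 in mouse 30 and 44.2 in mouse 34 (72 ± 30.4). In OPC it was 67.9 CPM in mouse 3, 82.0 in mouse 4, 76.4 in mouse 30 and 55.1 in mouse 34 (70.3 ± 11.7). The ranges overlapped, and the edgeR test between these types gave a log2 difference of 0.17 ± 0.21 (adjusted p = 0.53). Without mouse 30 the means were 58.1 and 68.3 CPM. Microglia, next in the order with 3 UMIs, were below OPC by 2.62 ± 0.70 (edgeR adjusted p = 0.00176). The difference was 2.24 without mouse 34 and 3.92 without mouse 4. The gene failed the filter for this pair without mouse 3 or without the cells of the highest doublet scores.

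Along the oligodendrocyte lineage, Igfbp3 fell sharply after the OPC stage. Committed oligodendrocyte precursors (COP), the cells next in the lineage and marked by Gpr17, held 1 UMI in 681 cells, against 93 UMIs in 1261 OPC. That is a ratio of 86.6 (exact counting interval 15.2 to 3458). Mature oligodendrocytes held 5 UMIs in 4566 cells, a mean of 1.2 ± 0.961 CPM. Igfbp3 was the single one of the 8 genes that passed the filter between COP and OPC, and it was lower in COP in all 4 mice (edgeR log2 fold change -5.89 ± 0.58, adjusted p = 1.39e-15). In that comparison 24% of the 4879 genes tested were called. Between OPC and oligodendrocytes 2 of the 8 genes were tested and Igfbp3 was called, higher in OPC by 5.68 ± 0.40 (edgeR adjusted p = 1.71e-26), where 28% of 6497 genes were called. With 1 UMI in COP and 5 in oligodendrocytes, Igfbp3 passed both filters through OPC alone. The direction of these tests was thus all but fixed, and their p-values add no separate support to the counts. After thinning, 3.35 ± 0.615% of OPC had an Igfbp3 UMI (6.89% unthinned, median 1020 UMIs per cell), against 0.0507 ± 0.101% of COP (0.155% unthinned, median 1771). COP were thus the more deeply sampled cells and held fewer Igfbp3 UMIs.

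Between endothelial cells and astrocytes 4 of the 8 genes were tested and all 4 were called, where 35% of 7616 genes were called. Igfbp7 was higher in endothelial cells by 6.72 ± 0.21 (edgeR adjusted p = 1.31e-36), Igfbp3 by 6.05 ± 0.41 (2.01e-20) and Igf2 by 3.95 ± 0.25 (8.06e-22) on the log2 scale. Igfbp5 was lower by 1.68, with an SE of 0.15 (log2 fold change -1.68, edgeR adjusted p = 6.23e-15). Each difference had the same sign in all 4 mice. A gene abundant in only 1 of the types can pass the filter through that type alone, so these counts describe the genes that could be tested. For such a gene the direction of the test is all but fixed, here and in every other pair in which 1 type held few UMIs.

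**Figure D3:**
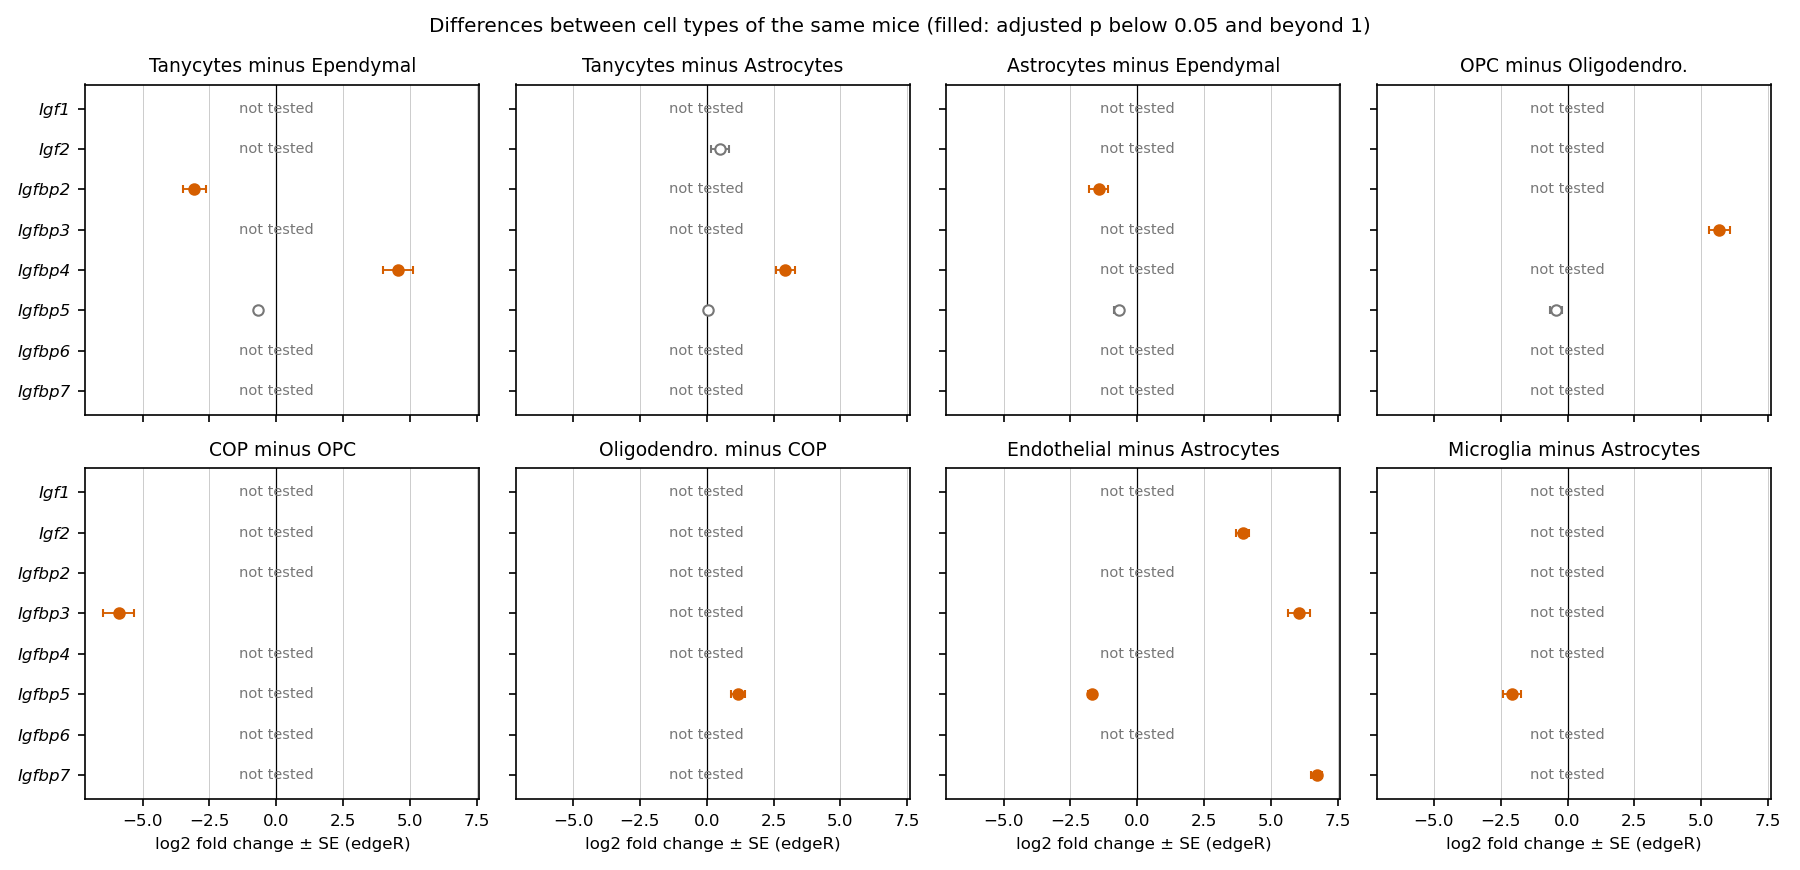
Log2 fold change ± SE (x axis, edgeR) of each gene in 8 comparisons of cell types within the 4 mice. Filled points were called (adjusted p under 0.05, difference beyond 1), open or grey points were not, and "not tested" marks genes removed by the filter on low counts.

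Igfbp5, the most conserved of the binding proteins and one that also binds to extracellular matrix, gave UMIs in every type. Of the 8 types that could be tested, it was highest in ependymal cells. In ependymal cells, the ciliated cells of the ventricular wall, it was 403 CPM in mouse 3, 384 in mouse 4, 245 in mouse 30 and 284 in mouse 34 (329 ± 76.6). Astrocytes had 154, 290, 218 and 135 CPM in mice 3, 4, 30 and 34 (199 ± 70.4), and tanycytes 229, 239, 162 and 147 CPM (194 ± 46.6). Ependymal cells were the highest of these types in every mouse, whereas astrocytes and tanycytes overlapped. The other 5 tested types lay between 24.3 ± 8.16 CPM in COP and 66.3 ± 28.7 CPM in endothelial cells. Transcripts of other types were found at low levels in these data, such as the oligodendrocyte list at 722 to 1205 CPM in astrocytes, and the part of free RNA in the low Igfbp5 values was not tested.

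Neighbours in this order differed at 2 of the 5 steps that could be tested. Ependymal cells exceeded astrocytes by 0.70 ± 0.16 on the log2 scale (edgeR adjusted p = 0.000833), which passed the p but not the fold limit. Tanycytes exceeded endothelial cells by 1.68 ± 0.16 (edgeR adjusted p = 1.63e-10). Astrocytes and tanycytes (log2 difference of tanycytes minus astrocytes 0.04 ± 0.11, edgeR adjusted p = 0.774), endothelial cells and oligodendrocytes (0.35 ± 0.20, 0.129) and oligodendrocytes and OPC (0.45 ± 0.23, 0.082) did not differ beyond their spread. In the lineage, oligodendrocytes exceeded COP by 1.17 ± 0.27 (edgeR adjusted p = 0.000141). Igfbp5 was the single member tested there, where 27.1% of 6209 genes were called. Microglia were lower than astrocytes by 2.08, with an SE of 0.33 (log2 fold change -2.08, edgeR adjusted p = 7.65e-08), again as the single member tested, where 37.8% of 4778 genes were called. With cells thinned to 500 UMIs, an Igfbp5 UMI was seen in 13.0 ± 2.58% of ependymal cells (29.0% unthinned, median 1131 UMIs per cell) and in 1.15 ± 0.432% of COP (3.91% unthinned, median 1771), the type with the lowest share.

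Igfbp4 (chr11:99041244-99054392, plus strand), a binding protein that mainly restrains IGF action and is cut by PAPP-A, had its highest mean among the tested types in tanycytes. It was 20.6 CPM in mouse 3, 26.1 in mouse 4, 17.9 in mouse 30 and 24.7 in mouse 34 (22.3 ± 3.74). Ependymal cells, which share the ventricular wall with tanycytes, held 2 UMIs in 1530 cells, a ratio of 25.3 (exact counting interval 6.86 to 211). Astrocytes held 4.10 ± 3.95 CPM, with 10.0 CPM in mouse 30 and at most 2.57 CPM in the others. Tanycytes exceeded astrocytes by 2.94 ± 0.35 (log2, edgeR adjusted p = 3.77e-09) in all 4 mice. There 3 of the 8 genes were tested and Igfbp4 alone was called, beside 21.1% of 10081 genes. Endothelial cells (13.7 ± 6.4 CPM), OPC (13.0 ± 6.03) and microglia (12.1 ± 6.92, from 4 UMIs) followed, and tanycytes did not differ from endothelial cells beyond the spread (0.75 ± 0.33, edgeR adjusted p = 0.0586). Without mouse 30 this difference was called (1.02, edgeR adjusted p = 0.0171).

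Igfbp2, the main binding protein of cerebrospinal fluid, had the opposite order of these neighbouring cell types. Ependymal cells held 22.6 CPM in mouse 3, 28.9 in mouse 4, 21.1 in mouse 30 and 18.0 in mouse 34 (22.7 ± 4.56), and tanycytes 0.983, 1.13, 5.27 and 2.80 CPM in the same order of mice. The groups did not overlap. Between tanycytes and ependymal cells 3 of the 8 genes were tested and 2 were called, where 19.8% of 8781 genes were called. Igfbp2 was lower in tanycytes (log2 fold change -3.06 ± 0.44, edgeR adjusted p = 1.48e-07) and Igfbp4 higher (4.56 ± 0.55, adjusted p = 2.25e-09), both in all 4 mice. Igfbp5 was also lower in tanycytes, but by less than the fold limit (-0.69 ± 0.10, edgeR adjusted p = 9.27e-08). Between astrocytes and ependymal cells 2 of the 8 genes were tested, and Igfbp2 was called, lower in astrocytes (-1.44 ± 0.34, edgeR adjusted p = 0.00134), where 31.8% of 8371 genes were called. Ependymal cells also exceeded the next tested type in the order, endothelial cells (11.1 ± 15.8 CPM), by 1.45 ± 0.57 (edgeR adjusted p = 0.0343), in 3 of 4 mice. This call was lost without mouse 4 (edgeR adjusted p = 0.12), without the mouse block (edgeR adjusted p = 0.0512) and with DESeq2 (adjusted p = 0.0513). Without mouse 3 or mouse 34 the gene failed the filter. Without mouse 30 the difference was larger, at 3.19 (edgeR adjusted p = 8.92e-06). In mouse 30 endothelial cells were higher, at 34.2 CPM from 9 UMIs, 6 of them in 1 cell. In mice 3, 4 and 34 endothelial cells held 1.71, 8.67 and 0 CPM.

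Igfbp6 (chr15:102144362-102149511, plus strand), which prefers IGF2 over IGF1, had most of its UMIs in VLMC and was at the limit of the depth elsewhere. Its 106 UMIs included 65 in VLMC, 21 in tanycytes and 0 in 1530 ependymal cells, which allows up to 1.32 CPM over these cells (3 UMIs, counting error only). In tanycytes the UMIs lay in 21 cells, 13 of them in mouse 30, 3 in mouse 4, 5 in mouse 34 and 0 in mouse 3. No UMI was found in any of the 7386 cells of mouse 3, whose 6 VLMC held 0. In the VLMC of the other mice the level was 1132 CPM in mouse 4, 345 CPM in mouse 30 and 878 CPM in mouse 34. Of the 65 UMIs in VLMC, 26 lay in 4 cells of cluster 39, the cluster of the Acta2-rich endothelial cells. These 4 cells held 0 UMIs of Dcn, Lum, Col1a1 and Slc6a13 and 10 of Col1a2, so most of the VLMC list was absent. In mouse 30 they were 3 cells with 21 of its 29 UMIs. Like Igf1, Igfbp6 passed the filter on low counts in none of its 7 pairs of neighbouring types, and no test was made.

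Where VLMC were best sampled, in mouse 30, the summed levels of Igfbp2, Igfbp4 and Igfbp5 were also above those of the types that could be tested. Those of Igfbp3 and Igfbp7 were not. Igfbp2 was 1034 CPM there (Poisson interval 828 to 1275), 49.0 times (25.4 to 105.8) the level in the ependymal cells of that mouse, and the fewer VLMC of mice 3, 4 and 34 gave 537, 227 and 1676 CPM. Igfbp5 was 894, 5073, 1331 and 4150 CPM in mice 3, 4, 30 and 34, and in mouse 30 it was 5.44 times (4.16 to 7.11) the ependymal level. This level rested on few cells, which the counting interval does not cover. Of the 112 Igfbp5 UMIs of mouse 30, 52 lay in 1 cell, 25 in another and 24 in 3 cells of cluster 39. Only 10 of its 44 VLMC had an Igfbp5 UMI. In mouse 34, 48 UMIs lay in 1 cell. Igfbp4 was 190 CPM in mouse 30 (109 to 309) and 272 CPM in mouse 4, and 0 UMIs were found in the 6 VLMC each of mice 3 and 34. Igfbp7 was 155 CPM in mouse 30, below the 414 CPM of its endothelial cells, and 179 to 239 CPM in the others, where 1 to 4 UMIs could not be told apart from the endothelial level. Igfbp3 was 11.9 CPM in mouse 30, from 1 UMI (0.301 to 66.2), against 114 CPM in endothelial cells and 76.4 CPM in OPC of that mouse, and VLMC of the other mice held 0 UMIs.

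The VLMC were not uniform, and Igf2 and Igfbp5 were seldom found in the same cell when all mice were pooled. Igf2 was found in 39 of the 68 cells and Igfbp5 in 26, and both in 5. This rests largely on mouse 30, since without it 7 of 24 cells had Igf2, 16 had Igfbp5 and 3 had both. Of the 13 cells with at least 5 Igfbp5 UMIs, 0 had an Igf2 UMI, and of the 17 with at least 5 Igf2 UMIs, 1 had an Igfbp5 UMI. Igfbp2 was found together with Igf2 in 26 cells, out of 36 with Igfbp2, but 23 of the 26 were in mouse 30, and without that mouse it was 3 of 9. Igfbp6 was found with Igfbp5 in 12 cells and with Igf2 in 5, out of 17 with Igfbp6.

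The authors' clusters of the VLMC differed in these genes when all mice were pooled, which is a description, since the clusters were made from the expression of these cells. The 36 cells of cluster 46 held Igf2 at 2949 CPM (Poisson interval 2545 to 3400), Igfbp2 at 1444 CPM (1165 to 1768) and Vtn, the gene of the matrix protein vitronectin, at 3135 CPM. Igfbp5 was 776 CPM there, and 48 of its 50 UMIs lay in 1 cell. The 28 cells of cluster 37 held Igfbp5 at 5384 CPM (4669 to 6178), Igf2 at 371 CPM (203 to 623), and the collagen-binding Dcn and Lum at 5835 and 981 CPM, against 1801 and 124 CPM in cluster 46. Cluster 46 came almost wholly from mouse 30, with 32 of its 36 cells, while cluster 37 held 5, 12, 9 and 2 cells of mice 3, 4, 30 and 34. Within mouse 30 alone, Igfbp5 was 10240 CPM (8187 to 12640) in the 9 cells of cluster 37 and 35.1 CPM (4.25 to 127) in the 32 cells of cluster 46. Of the 86 Igfbp5 UMIs of these 9 cells, 52 lay in 1 cell and 25 in another, and 4 cells held 0. Igf2 in cluster 37 was uneven between mice, with 45.3 CPM in the 12 cells of mouse 4 and 119 CPM in mouse 30, but 1955 CPM (894 to 3711) in the 5 cells of mouse 3, from 9 UMIs, and 1145 CPM (236 to 3346) in the 2 cells of mouse 34, from 3 UMIs. Mouse 34 went against the pooled division, with 0 Igfbp5 UMIs in its cluster 37 cells and 48 in 1 cell of cluster 46.

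**Figure D4:**
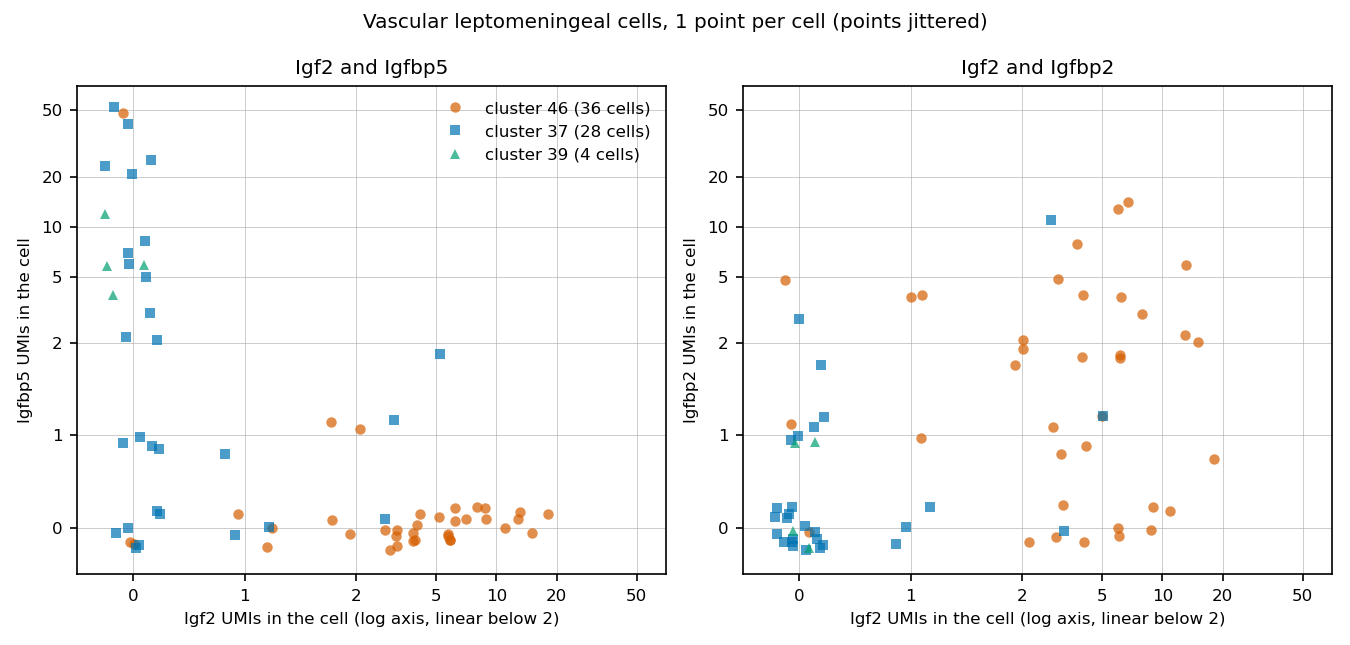
UMIs of Igf2 (x axis) against UMIs of Igfbp5 (left) or Igfbp2 (right) in each of the 68 VLMC, coloured by the authors' cluster, on axes that are logarithmic and linear below 2. Cells high in Igfbp5 lie along the left edge with 0 Igf2 UMIs, whereas 26 cells held both Igf2 and Igfbp2.

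Within tanycytes, the authors' clusters 1 and 2, among the largest of the 9, had opposite orders of Igfbp4 and Igfbp5. Cluster 1 (1071 cells) held Igfbp4 at 35.0 CPM (Poisson interval 25.9 to 46.3) and Igfbp5 at 106 CPM (90.0 to 125). Cluster 2 (1253 cells) held Igfbp4 at 8.64 CPM (4.31 to 15.5) and Igfbp5 at 311 CPM (281 to 343). The other clusters did not all follow this order, since cluster 43 (32 cells) was the lowest in both genes. Between clusters 1 and 2 the order was the same in each mouse: Igfbp4 was 32.1 to 38.9 CPM in cluster 1 and 0 to 11.8 CPM in cluster 2, and Igfbp5 was 96.3 to 157 CPM in cluster 1 and 213 to 389 CPM in cluster 2. Cluster 1 also held more Crym, a tanycyte marker gene for a thyroid hormone binding protein, at 785 against 283 CPM, while Rax, a transcription factor of all tanycytes, was 64.3 and 47.1 CPM. No test was made, because the clusters were formed on the expression of the same cells.

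Astrocytes were also uneven for Igfbp5. Cluster 25 (132 astrocytes) held 789 CPM (650 to 948), and the other 7 clusters 78.1 to 254 CPM. In cluster 25 mice 4, 30 and 34 had 665, 706 and 713 CPM, and the 17 cells of mouse 3 had 1466 CPM. These astrocytes also held the tanycyte marker Col23a1 at 461 CPM, against 14.4 CPM in the 1201 astrocytes of cluster 5. The 46 cells of cluster 25 labelled tanycytes did not share the high Igfbp5 level. In ependymal cells the low Igfbp5 value of mouse 30 went with cluster 32, at 149 CPM, while the mouse 30 cells of clusters 11 and 12 held 417 and 601 CPM. Without mouse 30 the ependymal mean was 357 CPM.

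**Figure D5:**
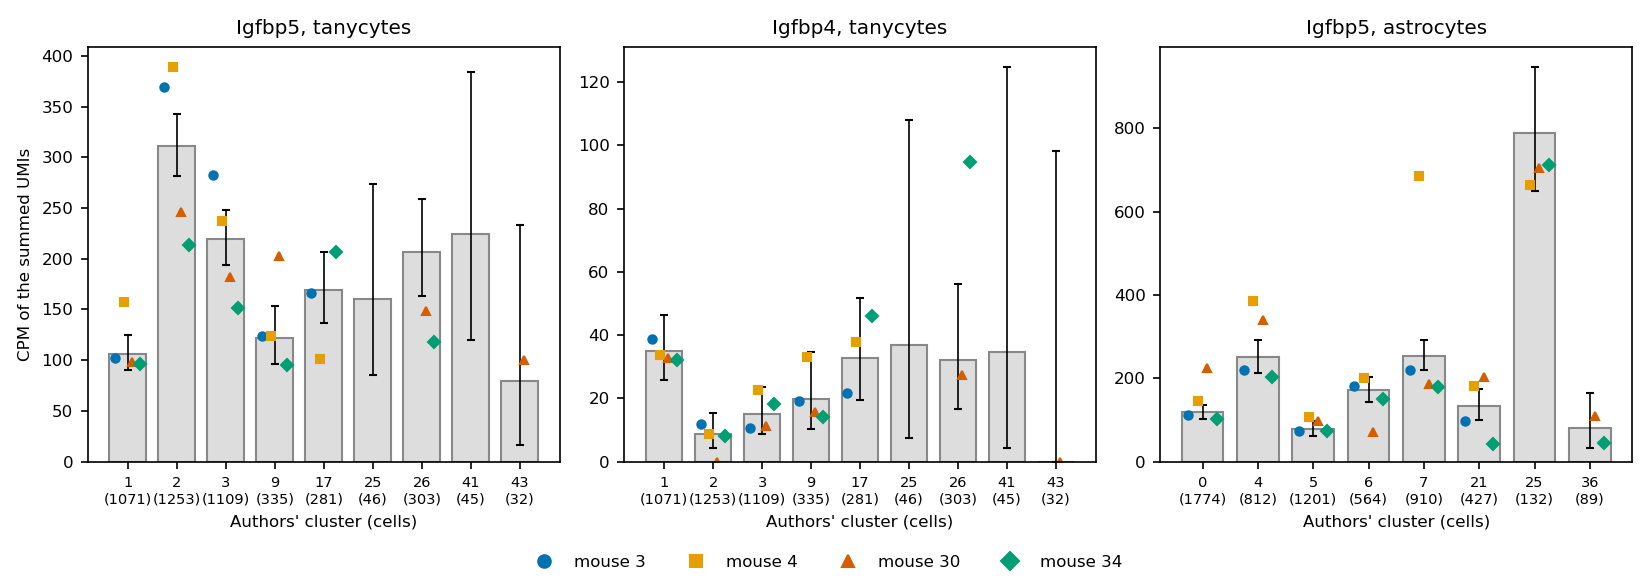
Level (y axis, CPM) of Igfbp5 and Igfbp4 in tanycytes and of Igfbp5 in astrocytes by the authors' cluster, with the number of cells in brackets. Bars are all cells with exact 95% Poisson intervals, and points are mice with 20 or more cells. Tanycyte cluster 1 is high in Igfbp4 and low in Igfbp5, and cluster 2 the reverse.

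A list of 32 other genes of the pathway (receptors, proteases of the binding proteins, the growth hormone axis and signalling) was examined, of which 28 were among the genes of the table. Igf1r, the receptor of both ligands, was highest in endothelial cells at 1055 ± 131.5 CPM (n = 4), and its mean lay between 53.2 and 230 CPM in the other 7 tested types. It exceeded astrocytes there by 2.72 ± 0.10 on the log2 scale (edgeR adjusted p = 5.52e-32). Insr, the insulin receptor, was also higher in endothelial cells (113 ± 49.6 against 42.9 ± 6.37 CPM in astrocytes, log2 difference 1.27 ± 0.17, edgeR adjusted p = 8.3e-10). Endothelial cells thus held high levels of Igf2, Igfbp3, Igfbp7 and Igf1r at once. Within the label the receptor ran against its ligand, with 1097 CPM of Igf1r in the cells with more endothelial UMIs and 681 CPM in those with more mural UMIs, and it was lower in the latter in all 4 mice.

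Of the 20 pathway genes tested between endothelial cells and astrocytes, 7 were higher in endothelial cells, 3 lower and 10 not called, beside 35% of all genes called, with a median log2 fold change of 0.38 beside -0.02 over all genes tested. Besides the receptors, Grb10 and Grb14, adaptors that restrain insulin and IGF receptor signalling, were higher by 3.59 ± 0.28 and 2.13 ± 0.22 (edgeR adjusted p = 1.1e-17 and 9.66e-13). Socs2, a brake on growth hormone signalling, was higher by 4.47 ± 0.40 (edgeR adjusted p = 3.82e-15), and Shc1, an adaptor of receptor tyrosine kinases, was higher by 1.48 ± 0.28 (adjusted p = 6.16e-06). Htra1, a protease that cuts binding proteins, was lower (-3.88 ± 0.16, edgeR adjusted p = 2.56e-30), as were the receptor substrates Irs1 and Irs2 (-1.22 ± 0.36, lower in 3 of 4 mice, and -1.18 ± 0.28).

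Around the ventricle, Igf1r was lower in tanycytes than in ependymal cells (85.0 ± 4.36 against 230 ± 44.6 CPM, log2 fold change -1.32 ± 0.12, edgeR adjusted p = 2.22e-13), and so were Igf2r (-1.60 ± 0.27) and Irs1 (-1.90 ± 0.23). Grb10 (1.98 ± 0.36) and Pik3r1 (1.02 ± 0.14), a subunit of PI3-kinase, were higher in tanycytes. These were 5 of the 19 pathway genes tested, beside 19.8% of all genes, with a median of -0.08 beside 0.03 over all genes. Astrocytes were the type with the highest Htra1 (524 ± 71.6 CPM), above tanycytes (44.6 ± 3.67 CPM, edgeR log2 fold change of tanycytes minus astrocytes -3.62 ± 0.11, adjusted p = 1.23e-25) and above ependymal cells (2.97 ± 0.14, adjusted p = 7.34e-13). Of 20 pathway genes tested between tanycytes and astrocytes, Grb10 was higher in tanycytes and Htra1, Irs1 and the growth hormone receptor Ghr were lower, 4 in all beside 21.1% of all genes. Of 18 tested between astrocytes and ependymal cells, Htra1, Ghr and Pik3r1 were higher in astrocytes and Igf2r was lower, 4 in all beside 31.8% of all genes.

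Along the oligodendrocyte lineage Irs1 was 21.3 ± 11.7 CPM in OPC, 102 ± 21.6 in COP and 4.73 ± 0.446 in oligodendrocytes, a rise and a fall that were both called (2.26 ± 0.26 and -4.15 ± 0.26, edgeR adjusted p = 1.59e-12 and 3.67e-23). Grb14 reached 786 ± 33.1 CPM in oligodendrocytes, above COP by 4.83 ± 0.16 (edgeR adjusted p = 4.61e-40), and Htra1 was lower in COP than in the stages before and after it (-2.09 ± 0.22 and 2.13 ± 0.20). Foxo1 was higher in oligodendrocytes than in COP (1.08 ± 0.32, edgeR adjusted p = 0.00275). Of the pathway genes tested, 2 of 9 were called between COP and OPC, 4 of 15 between oligodendrocytes and COP, and 1 of 12 (Grb14) between OPC and oligodendrocytes, beside 24%, 27.1% and 28% of all genes tested. In microglia Igf1r, Htra1 and Foxo1 were lower than in astrocytes (-1.34 ± 0.32, -3.08 ± 0.26 and -1.35 ± 0.46), 3 of 10 tested, beside 37.8% of all genes. H19, the imprinted neighbour of Igf2, was listed at 0 in all cells, as were Stc2 and Insrr.

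Over all 8 genes, 12 of the 56 pairs of neighbouring types in the order of a gene's level could be tested, and 5 were called. The order was taken from the same values that were tested, so these calls describe that order only. In the pairs of types of these 5, the genes called were 32.3% (tanycytes and endothelial cells, for Igf2 and Igfbp5), 38.2% (ependymal and endothelial cells, for Igfbp2), 36.3% (OPC and microglia, for Igfbp3) and 34.5% (endothelial cells and microglia, for Igfbp7) of those tested. The other 44 pairs held too few UMIs for a test. Some tested pairs passed the filter through the higher type alone, such as Igfbp7 with 2 UMIs in microglia. The genes with the profile most like that of a member were read from Pearson correlations of log2(CPM + 1) over the 33 sums of type and mouse with 20 cells, among 10915 genes. These sums share mice and libraries, and the single VLMC sum is that of mouse 30, so the values are descriptions. Igfbp7 was most like Galnt15, Hspa12b and Wfdc1 (r between 0.902 and 0.907), and Igfbp5 was most like the metallothioneins Mt2 and Mt1 (0.897 and 0.895) and Gm14964 (0.878). Igf2 was most like Zic1 (0.887), a transcription factor gene, Vtn (0.863) and Bgn (0.858), and Igfbp6 was most like Rbp4 (0.850), Fgfbp1 and Aldh1a2, an enzyme of retinoic acid synthesis and a known meningeal gene. Igfbp3 was most like Ostf1 (0.83), Ajap1 and Ebf1, Igfbp4 most like Zc3hav1 (0.779), Psme2 and Cdc42ep5, Igfbp2 most like Col6a1 (0.734), Slc13a4 and Slc22a6, and Igf1, with 33 UMIs, most like Kcnj13 (0.694), Omd and Efemp1. Between members, the closest profiles were those of Igf2 and Igfbp7 (0.708), Igfbp3 and Igfbp7 (0.643) and Igfbp2 and Igfbp5 (0.634), and the most unlike were those of Igfbp3 and Igfbp5 (-0.202).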

How the data were processed

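Hypothalamic cells were dissociated and sequenced as single cells (10x Chromium 3′ v2 chemistry, per the labels). The submitters' processing notes name Cell Ranger 1.2 and Seurat, and the builds GRCm38, mm10 and GRCh38 with no role. The deposited raw values are UMI counts. Recomputed totals and gene numbers matched those that the authors listed in each of the 20151 cells. The authors also deposited a mitochondrial percent, which was recomputed from 13 genes and matched within 1e-6, and a doublet score as a fraction. All cells carried a negative doublet call, so no doublet was removed here. The least deposited cell held 487 UMIs and 396 genes. Cells of 12 further libraries (50172 cells) carry names that are not among the labelled samples and were not used.

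Counts were summed per mouse and authors' cell type. Pairs of types were compared by the edgeR 4.0.16 quasi-likelihood F test (R 4.3.3) after filterByExpr and TMM, with a term for each mouse. The Benjamini-Hochberg adjustment ran over all genes of the pair, and a call needed both 0.05 for the adjusted p and 1 for the absolute log2 fold change. Sums needed 20 cells in at least 2 mice. The samples pair because both types come from the same animal. Standard errors were derived from the F statistic. The fit was tested on simulated data. The cell types were defined on expression, so calls between them are descriptive. Intervals are exact at 95% and cover counting error only. Thinned shares are exact expectations of drawing 500 UMIs from each cell, which left out 1 cell. DESeq2 and the other alternatives are given in the closing section. The genes named were the 8 members, the receptors and called genes of a pathway list, and the 3 genes most alike in profile per member with at least 20 CPM in 1 type. The members and the lists were chosen with earlier results of these data known. The values of 1 pathway gene are not reported here.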

Additional observations from a re-analysis of the deposited data

Results flagged for a closer look

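Of 19 levels (1 gene in 1 cell type over the 4 mice) with enough UMIs to be screened, 1 had a mouse far from the others. Igf2 in the endothelial cells of mouse 30 was 212.5 CPM, from 56 UMIs, while the other mice lay between 91.0 and 108 CPM, and the gap was 0.861 of the whole range. About 5% of groups of this size would show such a gap by chance. The VLMC list level in these cells was also the highest of the 4 mice, and its part in the Igf2 value was not tested.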

How the results depend on the processing

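The 142 alternative values that could be computed for the 12 log2 fold changes called in the 8 main comparisons all kept their direction and their call, which does not cover the neighbouring pairs. These covered DESeq2, other normalizations and filters, leaving out each mouse and the fit without the mouse block. Counts of called genes were less steady. With no filter on low counts, called members were 4 in place of 2 (tanycytes against ependymal cells), 2 in place of 1 (tanycytes against astrocytes, OPC against oligodendrocytes, COP against OPC), and called pathway genes 5 in place of 1 (OPC against oligodendrocytes) and 4 in place of 2 (COP against OPC). In 1 joint fit over all types, called members were 2 in place of 1 (tanycytes against astrocytes, OPC against oligodendrocytes, COP against OPC, microglia against astrocytes), and called pathway genes 6, 4 and 5 in place of 1, 2 and 3 (OPC against oligodendrocytes, COP against OPC, microglia against astrocytes). With sums thinned to equal totals, an alternative chosen after seeing the data, 0 members were called for tanycytes against ependymal cells and for astrocytes against ependymal cells, because Igfbp2 and Igfbp4 then failed the filter and gave no value. Leaving out 1 mouse gave 1 to 2 members for OPC against oligodendrocytes (2 without mouse 30), 1 to 3 pathway genes there (3 without mouse 4, 2 without mouse 30), 2 to 5 pathway genes for microglia against astrocytes (5 without mouse 30) and 3 to 6 of the neighbouring pairs (3 without mouse 3, where Igfbp2 in ependymal against endothelial cells and Igfbp3 in OPC against microglia failed the filter). Without the mouse block the called members were the same in number in each comparison (2 for tanycytes against ependymal cells, 4 for endothelial cells against astrocytes), the neighbouring pairs called were 4 in place of 5 (Igfbp2 in ependymal against endothelial cells was lost) and the pathway genes of microglia 4 in place of 3. Thinning to 800 UMIs moved 14 of 19 shares of cells and no thinning moved 17. Igf1 and Igfbp6 are limited by depth, and VLMC by their 68 cells.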
